A study of Macaca mulatta with 43 samples.

Results

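Genes of ethanol and aldehyde oxidation were followed in the prefrontal cortex of rhesus macaques: ADH5, CAT, ALDH1A1, ALDH2, ALDH3A2, ALDH5A1, ALDH6A1, ALDH7A1 and ALDH9A1. Every probeset whose only gene symbol in the array's probe table was 1 of these was taken, which gave 18 probesets of 8 genes out of 24151 probesets tested for 13705 gene symbols. ALDH1A1 had no such probeset and is not analysed here. All 18 member probesets passed the filter on low values. RNA was pooled within each animal over Brodmann areas 24, 25 and 32 and hybridised to 1 array per animal, for 43 adult males aged 5 to 11 years. The 32 ethanol drinkers were induced to drink by schedule-induced polydipsia and then chose between 4% (w/v) ethanol and water for 22 h a day over 1 year. The 11 controls received calorically matched maltose dextran and water. Cohort 4 held 11 drinkers and no control, cohort 5 held 8 drinkers and 5 controls, cohort 7a held 8 drinkers and 4 controls, and cohort 7b held 5 drinkers and 2 controls. RNA of cohorts 4 and 5 was extracted with one kit and that of cohorts 7a and 7b with another, so the kit and these pairs of cohorts cannot be told apart.

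Ethanol is oxidised to acetaldehyde and acetaldehyde to acetate. In liver the first step is carried mainly by cytosolic alcohol dehydrogenases, while in brain catalase, which oxidises ethanol with hydrogen peroxide, and a cytochrome P450 are the better known routes. Mitochondrial ALDH2 is the main acetaldehyde dehydrogenase. The other aldehyde dehydrogenases have their own substrates, among them fatty aldehydes and the semialdehydes of GABA, valine and lysine breakdown.

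Ethanol drinkers had lower levels than controls at 5 of the 18 member probesets when cohorts were compared within themselves and combined, and at none were they higher. These were both probesets of ADH5 and 1 probeset each of ALDH2, ALDH6A1 and ALDH7A1, with falls of 0.19 to 0.42 log2 units. Over all probesets tested, 33.3% were called in this comparison, 11.8% higher and 21.5% lower in drinkers, so the members' 27.8% lay near the background. The member probesets had a median difference of -0.12 log2 units, against -0.04 over all probesets. All calls are limma's with a Benjamini-Hochberg adjusted p under 0.05 over all probesets tested, and every level or difference is on the log2 scale of the RMA values. Single animals are named here by their array number. Without cohort 5, member calls rose to 7 and calls over all probesets from 8044 to 10739 of 24151. Both were fewer without cohort 7a, cohort 7b or a control of cohort 7b. Without control 37 of cohort 7b, 3 members were called (background 25.0%), without cohort 7a 1 (7.77%) and without cohort 7b 2 (11.9%). With the actin 3' minus 5' value of each array in the model 1 was called (15.6%). It was 4, all lower, with no block (background 16.2%, of which 5.57% higher and 10.6% lower) and 4, all lower, with processing batch as the block (background 22.7%, of which 8.22% higher and 14.4% lower).

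The counts of calls differed between cohorts. In cohort 5 no member probeset was called (background 0%; 731 of all 24151 and 0 of the 18 members had an unadjusted p under 0.05). In cohort 7a drinkers were lower at 7 and higher at 1 of the 18 (44.4%, against a background of 30.9%, of which 10.6% higher and 20.3% lower). The count was 5 without control 28 (background 23.2%) and 4 with the actin value in the model (background 19.5%). In cohort 7b drinkers were lower at 4 and higher at none (22.2%, against a background of 40.1%, of which 26.1% lower), and the count was 2 without control 37 (background 27.8%). The drinker minus control difference was also compared between cohorts 7a and 7b and cohort 5. It was more negative in cohorts 7a and 7b at 6 member probesets, of ADH5, ALDH2, ALDH6A1 and ALDH7A1. These were 33.3% of the members, near the background of 31.6%, of which 10.3% were higher and 21.3% lower. That count was 2, both of ADH5, without control 37 of cohort 7b (background 26.7%), and 3 with the actin value in the model (background 26.3%). The levels of drinkers and controls were wholly apart at 0 of the 18 probesets in cohort 5, where 0.0621% of all probesets were apart with drinkers lower and 0.104% with drinkers higher. They were apart at 2 in cohort 7a, both lower in drinkers, where the backgrounds were 6.49% lower and 4.55% higher, and at 5 in cohort 7b, 4 lower and 1 higher, where they were 27.6% and 15.6%. The comparisons within cohorts have separate controls but share 1 estimate of the spread. The fit over all cohorts and the comparison between cohorts reuse the same arrays, so they are not independent of these.

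**Figure D1:**
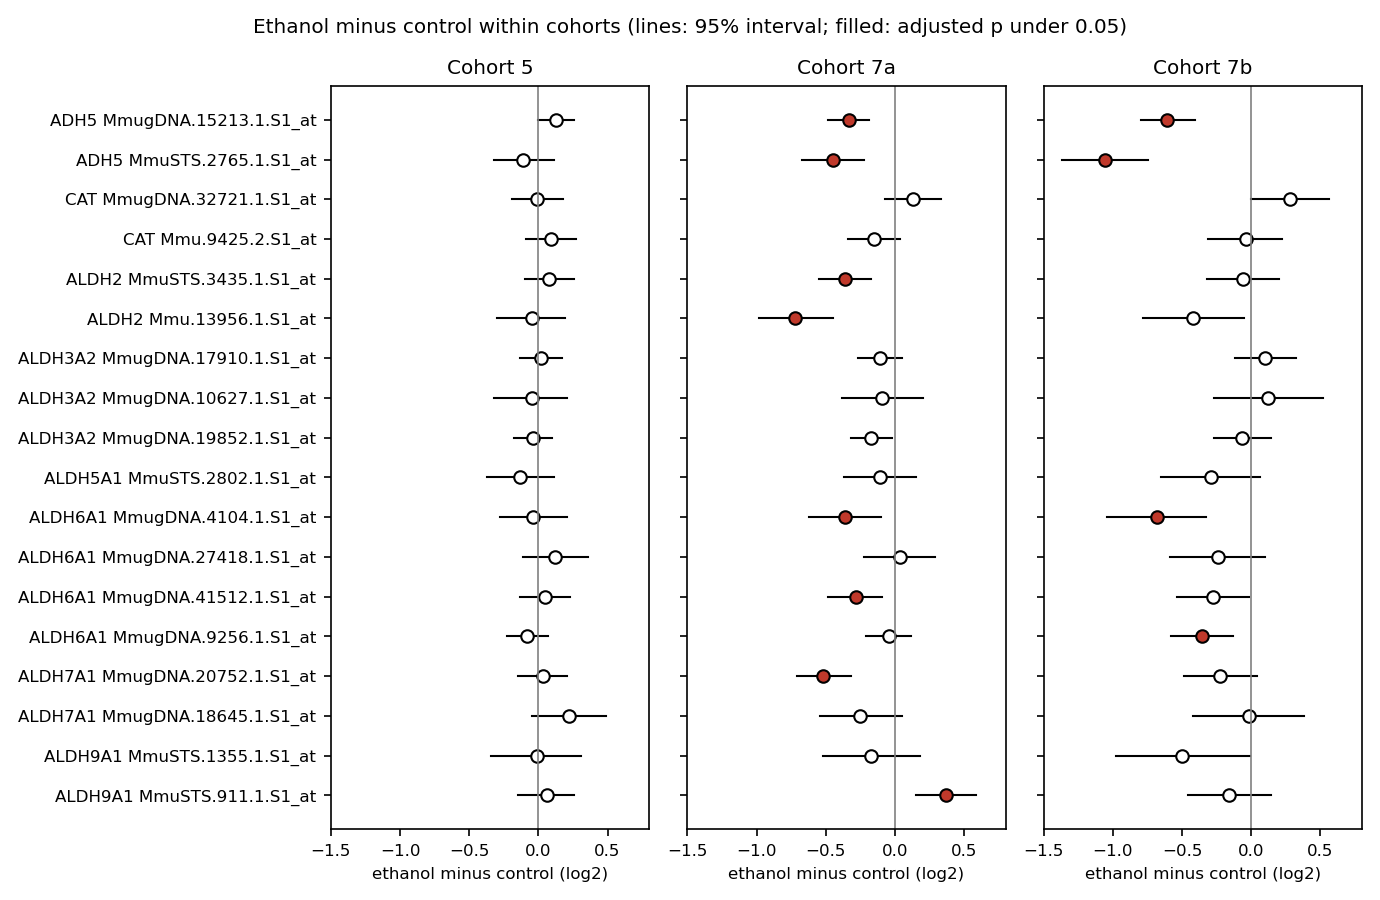
Fitted difference of ethanol drinkers minus controls (x axis, log2 units) for each of the 18 member probesets (y axis) in cohorts 5, 7a and 7b, with 95% intervals as lines and filled points for an adjusted p under 0.05. No point is filled in cohort 5, 8 are filled in cohort 7a and 4 in cohort 7b.

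One technical measure moved with treatment in the same cohorts. The 3' minus 5' value of the beta-actin control probesets, which grows as transcripts are truncated among arrays processed alike, ran from 0.93 to 1.60 in cohort 7a drinkers and from 0.76 to 0.87 in their controls, without overlap. In cohort 7b it ran from 0.76 to 1.71 in drinkers and from 0.75 to 0.81 in controls, and in cohort 5 from 4.36 to 4.95 in drinkers and from 4.24 to 4.74 in controls. The same value for GAPDH overlapped between drinkers and controls in each of the 3 cohorts. Fits with the actin value in the model are given beside the genes. Since this value was apart by treatment in cohort 7a, a call lost in these fits cannot tell truncation from treatment. The arrays fell into 8 processing batches, 3 of cohorts 4 and 5 and 5 of cohorts 7a and 7b, of which batch 8 held 4 drinkers and no control.

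ADH5, also called formaldehyde dehydrogenase or S-nitrosoglutathione reductase, is the alcohol dehydrogenase found in nearly every tissue and acts poorly on ethanol. Its first probeset (MmugDNA.15213.1.S1_at) was at 9.35, 9.65 and 9.76 (lowest, median and highest) in the 8 drinkers of cohort 7a, against 9.80, 9.86, 9.98 and 10.06 in the 4 controls. In cohort 7b it was at 9.48, 9.55, 9.64, 9.68 and 9.69 in the drinkers, against 10.13 and 10.30 in the controls. Every drinker lay below every control in both cohorts. ADH5 fell by 0.33 (SE 0.07, adjusted p = 0.000581) in cohort 7a and by 0.61 (SE 0.10, adjusted p = 4.84e-06) in cohort 7b.

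The second ADH5 probeset (MmuSTS.2765.1.S1_at) was at 8.31, 8.63, 8.63, 8.77 and 8.86 in cohort 7b drinkers, against 9.70 and 9.71 in controls. The drinkers again lay below both controls, and ADH5 fell by 1.06 (SE 0.16, adjusted p = 7.61e-07), the largest difference of any member in any cohort. On the linear scale it fell by 52.1%. In cohort 7a it was at 8.36, 8.55 and 9.0 in drinkers, against 8.85, 8.94, 9.03 and 9.40 in controls. These ranges overlapped, and the fall was 0.45 (SE 0.12, adjusted p = 0.00310).

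Cohort 5 showed no such fall of ADH5. The first probeset was at 9.59, 9.74 and 9.89 in drinkers, against 9.39, 9.56, 9.64, 9.70 and 9.76 in controls, and the second at 8.37, 8.70 and 9.04 in drinkers, against 8.45, 8.55, 8.81, 8.96 and 9.07 in controls. Both pairs of ranges overlapped, with differences of 0.13 and -0.11 (adjusted p = 1.00 for each). The drinker minus control difference in cohorts 7a and 7b, less that in cohort 5, was -0.60 (adjusted p = 3.30e-06) for the first probeset. It was -0.65 (adjusted p = 0.000626) for the second.

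ADH5 means lay closer together among drinkers of the 4 cohorts than among controls. Means of the first probeset were 9.62 ± 0.09 in cohort 4 drinkers, 9.74 ± 0.11 in cohort 5 drinkers, 9.59 ± 0.15 in cohort 7a drinkers and 9.61 ± 0.09 in cohort 7b drinkers (SD, n = 11, 8, 8 and 5). The controls averaged 9.61 ± 0.14 (cohort 5), 9.92 ± 0.12 (cohort 7a) and 10.22 ± 0.11 (cohort 7b; SD, n = 5, 4 and 2). Drinkers of cohort 7b differed from those of cohort 7a by 0.02 (95% interval -0.11 to 0.15) at this probeset, and drinkers of cohort 5 from those of cohort 4 by 0.12 (adjusted p = 1.00). Over all cohorts the first probeset fell by 0.19 (SE 0.06, adjusted p = 0.0182), a call lost when either cohort 7b control was left out (adjusted p = 0.0622 and 0.0847). It was -0.10 (adjusted p = 0.425) without cohort 7a, -0.09 (adjusted p = 0.398) without cohort 7b and -0.09 (adjusted p = 0.356) with the actin value in the model. The second fell by 0.42 (SE 0.09, adjusted p = 0.000371), and by 0.28 (adjusted p = 0.0228) with the actin value.

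The ADH5 differences of these same arrays were also split by processing batch, which is no separate test. In batches 4 to 7, which held both treatments of cohorts 7a and 7b, they were -0.38, -0.23, -0.53 and -0.56 at the first probeset and -0.49, -0.74, -0.69 and -0.99 at the second, negative in 4 of 4. In batches 1 to 3 they were 0.09, 0.03 and 0.04 at the first and -0.06, -0.32 and 0.05 at the second. With the actin value in the model, the cohort 7b differences were -0.52 (adjusted p = 2.95e-05) and -0.91 (adjusted p = 3.71e-06). In cohort 7a the same fit gave -0.21 (adjusted p = 0.0453) for the first probeset and -0.23 (adjusted p = 0.165) for the second, which was then not called.

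**Figure D2:**
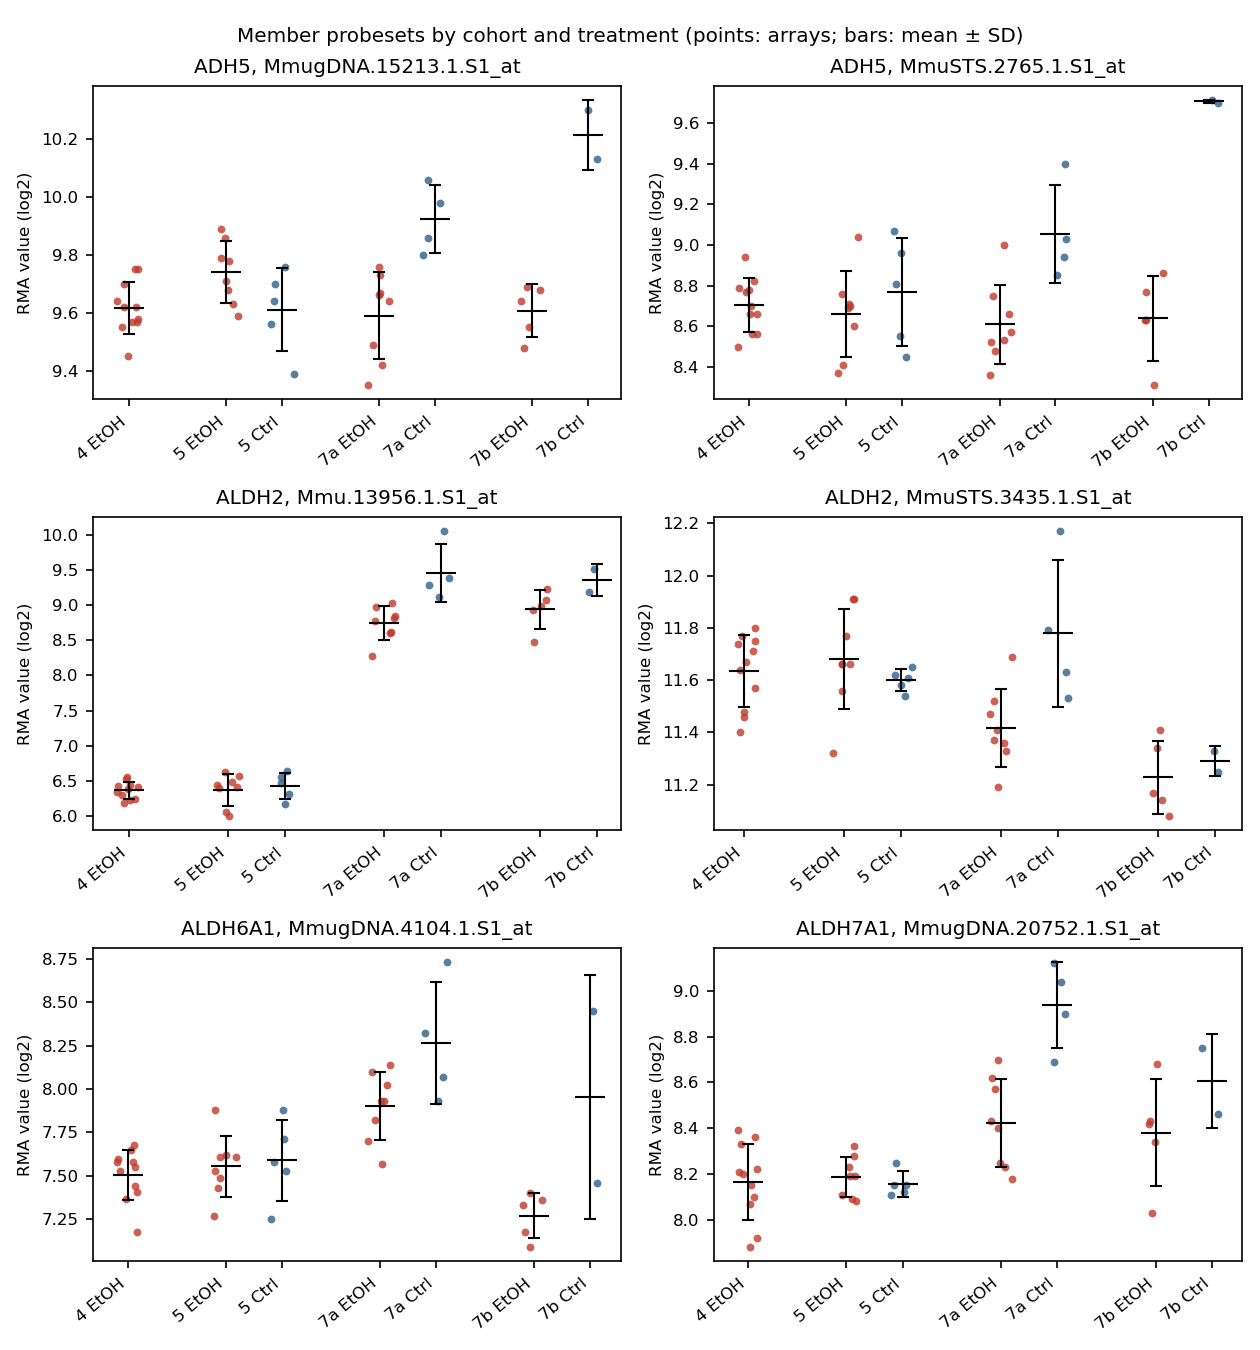
RMA value (y axis, log2) of each array (points) for 6 member probesets by cohort and treatment (x axis), with mean and SD as bars and drinkers in red, controls in blue. For the first ADH5 probeset all drinkers of cohorts 7a and 7b lie at or below 9.76 and their controls at or above 9.80, while the drinkers and controls of cohort 5 overlap.

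CAT, the peroxisomal catalase that can oxidise ethanol at the expense of hydrogen peroxide, was not called in any comparison. Its 2 probesets had low values, with group means of 3.68 to 4.04 for one (its identifier begins with Mmu and a dot) and 4.53 to 4.89 for the other (MmugDNA.32721.1.S1_at). Over all cohorts the differences were -0.02 (95% interval -0.15 to 0.10) and 0.10 (-0.02 to 0.23). In cohort 7b the second of these was at 4.67, 4.75, 4.77, 4.78 and 5.11 in drinkers, against 4.52 and 4.55 in controls. The ranges were apart with drinkers higher, as at 15.6% of all probesets there, and the difference of 0.28 did not pass (SE 0.14, adjusted p = 0.111).

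ALDH2, the mitochondrial enzyme that clears acetaldehyde, was measured by 2 probesets. The first, whose identifier begins with Mmu and a dot, was at 8.28, 8.79 and 9.03 in cohort 7a drinkers, against 9.11, 9.29, 9.38 and 10.05 in controls. Every drinker lay below every control, and ALDH2 fell by 0.72 (SE 0.14, adjusted p = 9.21e-05). On the linear scale it fell by 39.2%. In cohort 7b it was at 8.47, 8.93, 8.99, 9.07 and 9.22 in drinkers, against 9.19 and 9.51 in controls. One drinker lay within the control range, and the difference of -0.42 did not pass (adjusted p = 0.0709). In cohort 5 it was at 6.0, 6.43 and 6.63 in drinkers, against 6.17, 6.32, 6.47, 6.55 and 6.64 in controls, which overlapped (difference -0.05, adjusted p = 1.00), and in cohort 4 drinkers at 6.19, 6.39 and 6.55.

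The second ALDH2 probeset (MmuSTS.3435.1.S1_at) was at 11.19, 11.39 and 11.69 in cohort 7a drinkers, against 11.53, 11.63, 11.79 and 12.17 in controls. The ranges overlapped, with a fall of 0.36 (SE 0.10, adjusted p = 0.00397) and a difference of -0.23 (adjusted p = 0.0789) without control 28. In cohort 7b the difference was -0.06 (adjusted p = 0.767) and in cohort 5 it was 0.08 (adjusted p = 1.00). Both ALDH2 probesets were still called in cohort 7a with the actin value in the model, at -0.46 (adjusted p = 0.0157) for the first and -0.38 (adjusted p = 0.0147) for the second. Over all cohorts only the first was called, at -0.37 (SE 0.09, adjusted p = 0.00200), which became -0.29 (adjusted p = 0.0206) with batch as the block, -0.19 (adjusted p = 0.112) with the actin value, -0.17 (adjusted p = 0.241) without cohort 7a, and -0.70 (adjusted p = 0.294) with no block.

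The first ALDH2 probeset also differed more than any other member between the cohorts processed with different kits. It averaged 8.82 ± 0.26 in the 13 drinkers of cohorts 7a and 7b and 6.37 ± 0.17 in the 19 drinkers of cohorts 4 and 5 (SD), a gap of 2.44 log2 units with no overlap, while the second averaged 11.34 ± 0.17 and 11.66 ± 0.16 in the same animals. Of the 18 member probesets, 5 showed drinkers of these 2 sets of cohorts apart (27.8%, against 13.5% of all probesets), and probesets of a gene did not move together: those of ALDH3A2 differed by -0.42, 0.14 and 0.77, and those of ALDH9A1 by -0.10 and -1.05. Kit, processing and cohort cannot be told apart here, so these gaps are given as a description with no test.

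ALDH3A2 is the membrane-bound fatty aldehyde dehydrogenase, whose loss causes Sjögren-Larsson syndrome in humans. None of its 3 probesets was called in any comparison. Over all cohorts the differences were -0.02 (95% interval -0.11 to 0.08, MmugDNA.17910.1.S1_at), -0.03 (-0.21 to 0.14, MmugDNA.10627.1.S1_at) and -0.10 (-0.19 to -0.00, MmugDNA.19852.1.S1_at, adjusted p = 0.110). The last of these was at 7.58, 7.68 and 7.85 in cohort 7a drinkers, against 7.83, 7.85, 7.90 and 7.92 in controls. The ranges overlapped. At this probeset the drinkers were lower by 0.10 to 0.22 in 4 of 4 batches of cohorts 7a and 7b that held both treatments. They were lower in 1 of these 4 at MmugDNA.17910.1.S1_at and in 2 at MmugDNA.10627.1.S1_at. Each batch held 1 or 2 controls, so this is a description. The fitted difference of MmugDNA.19852.1.S1_at in cohort 7b was -0.07 (adjusted p = 0.648).

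ALDH5A1, succinic semialdehyde dehydrogenase, closes the breakdown of GABA. Its probeset (MmuSTS.2802.1.S1_at) was at 6.76, 7.16, 7.32, 7.36 and 7.42 in cohort 7b drinkers, against 7.36 and 7.63 in controls. The ranges overlapped, and no comparison of ALDH5A1 passed, with -0.15 (95% interval -0.31 to 0.00, adjusted p = 0.137) over all cohorts.

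ALDH6A1, methylmalonate semialdehyde dehydrogenase, acts in mitochondrial valine and thymine breakdown and had 4 probesets, which differed in what they showed. MmugDNA.4104.1.S1_at was at 7.09, 7.18, 7.33, 7.36 and 7.40 in cohort 7b drinkers, against 7.46 and 8.45 in controls. All drinkers lay below both controls, but the controls were 1 log2 unit apart. The fall was 0.68 (SE 0.18, adjusted p = 0.00236), and without control 37 the difference was -0.19 (adjusted p = 0.560). In cohort 7a the same probeset was at 7.57, 7.93 and 8.14 in drinkers, against 7.93, 8.07, 8.32 and 8.73 in controls, with overlap and a fall of 0.36 (adjusted p = 0.0351) and a difference of -0.20 (adjusted p = 0.293) without control 28. With the actin value in the model the difference was -0.40 (adjusted p = 0.0662) in cohort 7a and the fall in cohort 7b was 0.71 (adjusted p = 0.00319). Over all cohorts the probeset fell by 0.29 (adjusted p = 0.0106). That difference was not called at -0.27 (adjusted p = 0.0560) with the actin value, -0.24 (adjusted p = 0.147) without cohort 7a, -0.19 (adjusted p = 0.141) without cohort 7b and -0.19 (adjusted p = 0.0664) without control 37.

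The other 3 ALDH6A1 probesets were each called in fewer comparisons. MmugDNA.41512.1.S1_at was at 7.39, 7.79 and 8.16 in cohort 7a drinkers, against 8.0, 8.02, 8.06 and 8.27 in controls, a fall of 0.28 (adjusted p = 0.0267) with overlapping ranges and a difference of -0.22 (adjusted p = 0.134) without control 28 and -0.29 (adjusted p = 0.0756) with the actin value. MmugDNA.9256.1.S1_at was at 6.19, 6.27, 6.30, 6.35 and 6.57 in cohort 7b drinkers, against 6.68 and 6.70 in controls. The drinkers lay below both controls, with a fall of 0.36 (adjusted p = 0.0111) that missed the threshold without either control, at adjusted p = 0.0837 and 0.0630. MmugDNA.27418.1.S1_at was called against controls in no cohort, with 0.04 in cohort 7a and -0.24 in cohort 7b.

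ALDH6A1 was the only member gene called between drinkers of different cohorts. Drinkers of cohort 7b were lower than those of cohort 7a at 3 of the 18 member probesets, all of ALDH6A1 (16.7%, against a background of 11.9%, of which 4.54% higher and 7.32% lower). MmugDNA.27418.1.S1_at was at 7.03, 7.30, 7.33, 7.66 and 7.77 in cohort 7b drinkers, against 7.59, 8.08 and 8.33 in cohort 7a drinkers, with overlap and a difference of -0.65 (SE 0.12, adjusted p = 0.000348). MmugDNA.4104.1.S1_at ranged from 7.09 to 7.40 in cohort 7b drinkers and from 7.57 to 8.14 in cohort 7a drinkers. These ranges were apart, and the difference was -0.63 (SE 0.12, adjusted p = 0.000689), or -0.52 (adjusted p = 0.0397) with batch in the model. MmugDNA.41512.1.S1_at differed by -0.27 (adjusted p = 0.0458), which did not pass with batch in the model (adjusted p = 0.101) or without drinker 40, 41, 42 or 43 (adjusted p = 0.0669 to 0.119). Between drinkers of cohort 5 and cohort 4 no member was called, and none of all probesets tested was (background 0%; 909 of these and 1 of the 18 members had an unadjusted p under 0.05).

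ALDH7A1, or antiquitin, oxidises the semialdehyde of lysine breakdown and also betaine aldehyde, and its loss causes pyridoxine-dependent epilepsy in humans. Its first probeset (MmugDNA.20752.1.S1_at) was at 8.18, 8.41 and 8.70 in cohort 7a drinkers, against 8.69, 8.90, 9.04 and 9.12 in controls. Only the highest drinker reached the control range, and ALDH7A1 fell by 0.52 (SE 0.10, adjusted p = 0.000104), or by 0.41 (adjusted p = 0.00766) with the actin value in the model. In cohort 7b it was at 8.03, 8.34, 8.42, 8.43 and 8.68 in drinkers, against 8.46 and 8.75 in controls, which overlapped (difference -0.23, adjusted p = 0.184). Over all cohorts the fall was 0.23 (adjusted p = 0.0118), and with batch as the block the difference of -0.15 was not called (adjusted p = 0.107). Nor was it called at -0.13 (adjusted p = 0.225) with the actin value, -0.05 (adjusted p = 0.700) without cohort 7a or -0.22 without cohort 7b. The second probeset (MmugDNA.18645.1.S1_at) was not called, the differences being 0.22 (cohort 5), -0.25 (cohort 7a) and -0.02 (cohort 7b).

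ALDH9A1 oxidises trimethylaminobutyraldehyde in carnitine synthesis and aminobutyraldehyde to GABA. Its dimmer probeset (MmuSTS.911.1.S1_at) gave the only higher call among the members. It was at 4.55, 4.79 and 4.97 in cohort 7a drinkers, against 4.19, 4.29, 4.41 and 4.76 in controls. The ranges overlapped, and the rise was 0.37 (SE 0.11, adjusted p = 0.0103). With batch in the model it was 0.30 (adjusted p = 0.0594), with the actin value 0.28 (adjusted p = 0.121) and without control 27 it was 0.29 (adjusted p = 0.0703). In cohort 7b the difference was -0.16 (adjusted p = 0.432). The other probeset (MmuSTS.1355.1.S1_at) was at 9.14, 9.27, 9.49, 9.60 and 10.02 in cohort 7b drinkers, against 9.57 and 10.43 in controls, with overlap and a difference of -0.50 that did not pass (adjusted p = 0.106).

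**Figure D3:**
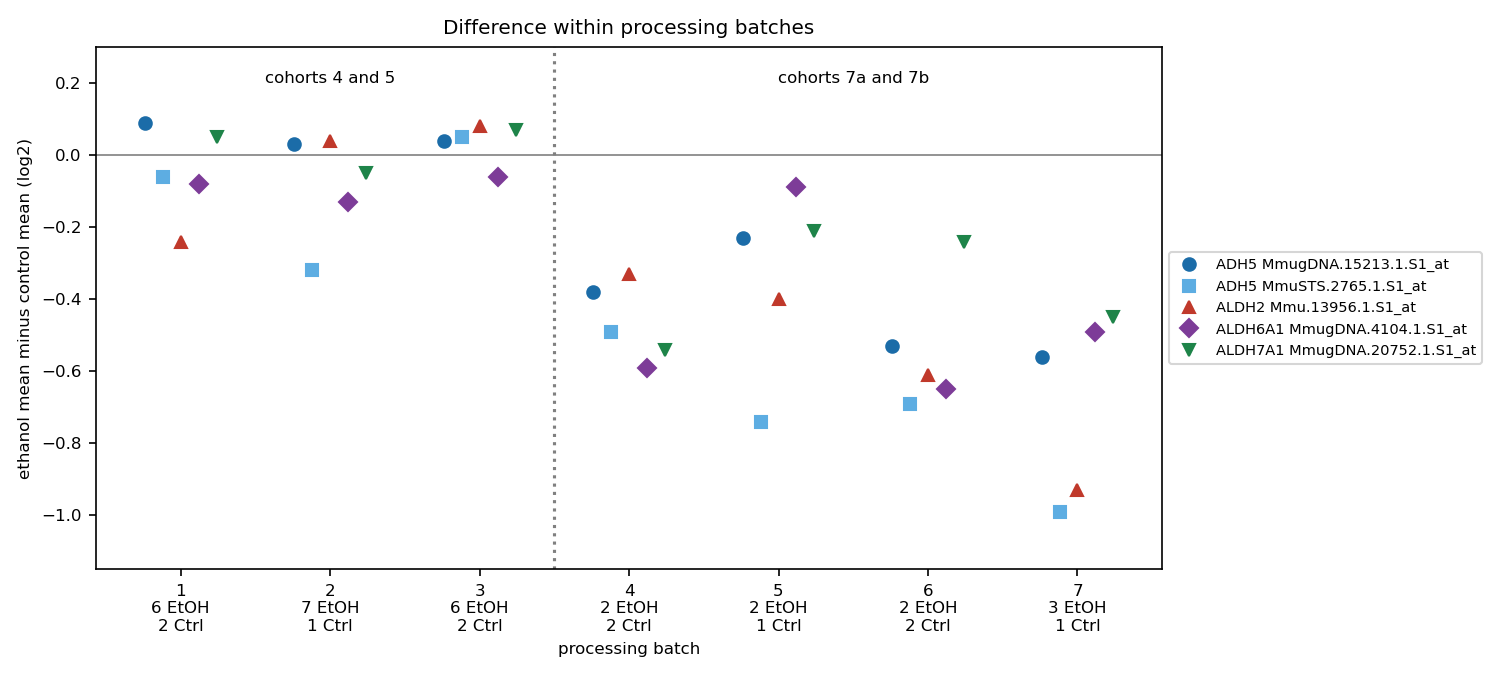
Mean of drinkers minus mean of controls (y axis, log2 units) within each of the 7 processing batches that held both treatments (x axis, with the arrays of each) for the 5 member probesets called over all cohorts. The probesets were picked by their calls on these same arrays. All 20 points of batches 4 to 7 lie below 0, and the 15 points of batches 1 to 3 lie between -0.32 and 0.09.

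These 5 probesets were picked by their calls on the same arrays, so their within-batch differences are a description and no separate support. In batches 4 to 7 the first ALDH2 probeset differed by -0.33 to -0.93, the first ALDH7A1 probeset by -0.21 to -0.54 and ALDH6A1 MmugDNA.4104.1.S1_at by -0.09 to -0.65. In batches 1 to 3 they lay between -0.24 and 0.08. Each batch held 1 or 2 controls, and these differences also cross cohorts. The drinkers of batches 1 to 3 included those of cohort 4, batches 4 and 6 held animals of cohorts 7a and 7b, and batch 7 set 3 drinkers of cohort 7a against 1 control of cohort 7b.

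Probesets of 1 gene varied together to different degrees among animals of a group. With each array centred on its cohort-by-treatment mean, the correlation over 43 arrays was 0.587 between the ALDH2 probesets, 0.461 for ALDH7A1, 0.373 for ADH5, 0.206 for CAT and 0.173 for ALDH9A1. Among the 4 probesets of ALDH6A1 it was 0.477 to 0.572 for the 3 pairs without MmugDNA.9256.1.S1_at and -0.00574 to 0.206 for the pairs with it. Over the same centred values, the genes most like ADH5 were HADHB (r = 0.673), WSB2 (0.629) and SELENOS (0.627). Those most like ALDH2 (MmuSTS.3435.1.S1_at) were NXT2 (0.798), CIAO2B (0.739) and ELF1 (0.716), and those most like ALDH5A1 were SLC7A14 (0.840), EIF4G1 (0.836) and CDC5L (0.832). CYYR1 was among the 3 most like both ALDH6A1 (0.614) and ALDH7A1 (0.612), and THAP4 among those of both ALDH7A1 (0.628) and ALDH9A1 (0.608). For CAT they were GPHA2 (0.642), SFI1 (0.635) and GPR35 (0.628), for ALDH3A2 LOC693472 (0.615), LOC718601 (0.528) and CWC22 (0.520), and LOC701221 (0.859) led for ALDH9A1. No member was among the 3 genes most like another. These arrays share batches and RNA quality, and the correlations are given as descriptions.

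Members of the wider enzyme families were called in both directions. Taking 1 probeset a gene, the one with the highest mean, 13.2% of all genes were higher and 20% lower in drinkers over all cohorts, with a median of -0.03, and of the 8 member genes none was higher and 3 were lower. Of 14 measured other alcohol and aldehyde dehydrogenases, 1 was higher and 1 lower (median -0.08). ADH1A, ADH1B, ADH1C, ALDH4A1 and ALDH16A1 of that list had no probeset with that single symbol among those tested. ALDH8A1, which acts in tryptophan breakdown, rose by 0.60 (adjusted p = 0.00359), with 0.77 in cohort 7a and 1.27 in cohort 7b. ADHFE1, an iron-dependent mitochondrial enzyme, fell by 0.24 (adjusted p = 0.0337). Among 5 aldo-keto and carbonyl reductases, AKR1A1, an aldehyde reductase, fell by 0.23 (adjusted p = 0.0384), with -0.89 (adjusted p = 1.61e-05) in cohort 7b, and DHRS4 rose by 0.20 (adjusted p = 0.00193). CYP2E1, the ethanol-oxidising cytochrome P450, had no probeset with that single symbol. Of the 3 genes that supply electrons to such enzymes, CYB5A fell by 0.18 (adjusted p = 0.0321) and POR rose by 0.13 (adjusted p = 0.0315). ACSS1, which activates acetate in mitochondria, rose by 0.19 (adjusted p = 0.0112), as 1 of 3 acetate genes.

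Of 10 peroxisome genes 5 were lower and 2 higher (median -0.13). PEX2, a ubiquitin ligase of the import machinery, fell by 0.49 (adjusted p = 5.00e-05) and PEX7, an import receptor, by 0.41 (adjusted p = 0.0129), while PEX6 rose by 0.33 (adjusted p = 0.00103) and ACOX3 by 0.22 (adjusted p = 0.0331). Of 10 genes of peroxide and glutathione handling 3 were lower and none higher (median -0.07), led by the peroxiredoxins PRDX4, which fell by 0.37 (adjusted p = 0.00136), and PRDX3, which fell by 0.35 (adjusted p = 0.000217). ESD, which completes the ADH5-dependent removal of formaldehyde, fell by 0.28 (adjusted p = 0.000388), falling by 0.38 (adjusted p = 3.63e-05) in cohort 7a and by 0.72 (adjusted p = 3.66e-08) in cohort 7b, with a difference of 0.01 for cohort 5. It was 1 of 2 lower among 5 formaldehyde and S-nitrosoglutathione genes (median -0.14), the other being AMD1, an enzyme of polyamine synthesis, which fell by 0.21 (adjusted p = 0.00380).

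Around the amino acid enzymes the directions were mixed. Of 8 genes of valine and branched-chain breakdown, BCKDHB fell by 0.45 (adjusted p = 0.000141) and DLD by 0.35 (adjusted p = 0.0156), while 3 were higher, BCAT1 by 0.21 (adjusted p = 0.0177) and BCAT2 by 0.18 (adjusted p = 0.00131) the most (median -0.05). In lysine breakdown, AADAT fell by 0.17 (adjusted p = 0.0268) and DHTKD1 rose by 0.26 (adjusted p = 0.000437) among 3 genes (median -0.05). In carnitine synthesis and uptake, BBOX1, the last enzyme, fell by 0.29 (adjusted p = 0.00746) and the transporter SLC22A5 rose by 0.27 (adjusted p = 0.000286), with a median of -0.09 over 3 genes. GAD2, which makes GABA, rose by 1.10 (adjusted p = 7.41e-06) as the only call among 4 genes of the GABA list, which also holds the autophagy protein GABARAP (median -0.01), with 1.51 (adjusted p = 2.18e-10) in cohort 7a and 2.22 (adjusted p = 1.24e-11) in cohort 7b. HACL1 and FAR2 fell by 0.26 (adjusted p = 0.0148) and 0.21 (adjusted p = 0.0171), 2 of 6 fatty alcohol and aldehyde genes (median -0.10). RARB and RDH10 fell by 0.42 (adjusted p = 0.00416) and 0.22 (adjusted p = 0.00821), 2 of 12 retinoic acid genes (median -0.05).

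**Figure D4:**
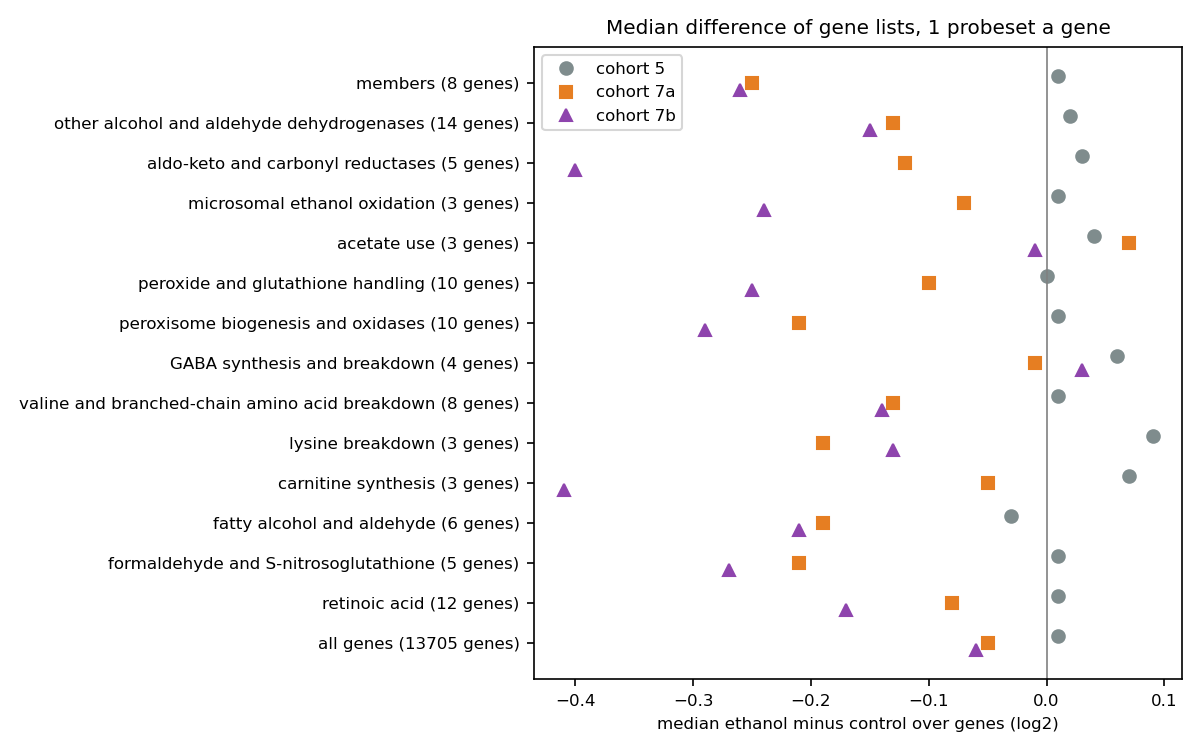
Median over genes of the difference of drinkers minus controls (x axis, log2 units, 1 probeset a gene) for the member genes, 13 related gene lists and all genes (y axis) in cohorts 5, 7a and 7b. The member median was 0.01 (cohort 5), -0.25 (cohort 7a) and -0.26 (cohort 7b), against 0.01, -0.05 and -0.06 over all genes.

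Markers of the cell types in the tissue were set beside these values, since in bulk tissue fewer cells of a type and less RNA per cell cannot be told apart. Of 11 astrocyte markers 2 were higher and none lower in drinkers over all cohorts, FGFR3 by 0.33 (adjusted p = 0.000106) and GFAP by 0.27 (adjusted p = 0.0261). In cohort 7a 2 were higher and S100B was lower (-0.41), and in cohort 7b 4 were higher and S100B (-0.53) and GJB6 (-0.83) lower. Their summed level ran from 15.70 to 15.95 in cohort 7a drinkers and from 15.69 to 15.93 in controls, and from 15.62 to 15.71 in cohort 7b drinkers and from 15.47 to 15.52 in controls. Of 8 microglia markers 3 were lower, including P2RY12 at -0.58 (adjusted p = 0.000710) and AIF1 at -0.44 (adjusted p = 0.00149), with summed levels of 10.66 to 10.99 in cohort 7a drinkers and 11.06 to 11.58 in controls, and of 10.58 to 11.05 in cohort 7b drinkers and 11.15 to 11.23 in controls. In cohort 7a AIF1 (-0.54), CX3CR1 (-0.44) and P2RY12 (-0.97) were lower and no microglia marker was higher. In cohort 7b AIF1 and P2RY12 were lower, while CSF1R (0.36) and C1QC (0.56) were higher (median of the 8 -0.14). The summed microglial levels were apart in cohorts 7a and 7b, as was the first ADH5 probeset. Of all probesets, 6.49% were apart with drinkers lower in cohort 7a and 27.6% in cohort 7b. In cohort 7b the summed astrocyte levels (drinkers higher) and vessel levels (drinkers lower) were apart too. The part of these cell types in the member results was not tested. Of 7 neuron markers 3 were higher, with GAD2 and THY1 (0.18, adjusted p = 0.00475) the largest. No marker of 4 for oligodendrocytes, 2 for their precursors or 6 for vessels was called over all cohorts. In cohort 7b 1 oligodendrocyte marker was higher and 1 lower, and 4 vessel markers were lower. Summed vessel levels there were 10.14 to 10.30 in drinkers and 10.53 to 10.56 in controls. Calls were common among all 13705 genes too, taking 1 probeset a gene. In cohort 7a 1625 of these were higher and 2518 lower, and in cohort 7b 2080 were higher and 3650 lower. Whether any marker list differed from this background was not tested. Of 2 red blood cell markers ALAS2 was lower, at -0.12 (adjusted p = 0.0354).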

How the data were processed

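Affymetrix rhesus macaque arrays were background-corrected and quantile normalised as 1 group by the authors with RMA in the affy package, and the deposited values are these log2 values for 43 arrays. The study later adjusted values for processing batch, but the deposited ones carry no such adjustment. The 8 batches were recovered from the lines that deposited and adjusted values of arrays of 1 batch share (912 probesets). The array genome build and tool versions are not given in the sources used here. Of 52865 probesets, 158 controls and 27390 with no gene symbol were dropped. A further 1166 that lay below 3.5 on 80% or more of the arrays were also dropped, leaving 24151. The 361 probesets with several gene symbols were not dropped on that ground and count in the background where they passed the low filter. Gene symbols came from the platform's probe table, and no sequence or coordinate was used. limma 3.58.1 in R 4.3.3 fitted either treatment with cohort as a block or 7 cohort-by-treatment means over all 43 arrays, with Benjamini-Hochberg adjustment over all probesets. Intervals are 1.96 standard errors. On simulated data, 98.0% of 100 probesets changed by 0.5 log2 units and 100% of 100 changed by 1 were recovered over all cohorts. No such share is given here for smaller differences or for a single cohort, such as cohort 5. Besides every member probeset, the text names from each list up to 2 genes with the largest rise and 2 with the largest fall called over all cohorts. Some astrocyte and microglia markers called in cohort 7a or 7b are named too. So are genes, not always all, of the 3 most like each member. Members and lists were chosen with earlier results of these data known. Each array was a separate animal, and the p-values rest on a spread between animals pooled over all groups. Those of a single cohort, such as 7b with its 2 controls, therefore do not measure the spread of that cohort alone. Few controls limit precision. Alternatives were no block, processing group or batch as the block, each cohort left out, the actin 3' minus 5' value as a covariate, other filters on low values, unannotated probesets added, a threshold of 0.01, eBayes with trend and each array of the groups of 2 to 5 left out.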

Additional observations from a re-analysis of the deposited data

Results flagged for a closer look

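The drinker minus control difference was unlike between cohorts 7a and 7b and cohort 5 at 6 member probesets, by a direct test. That was 33.3% of members, near the 31.6% of all probesets. The difference in cohorts 7a and 7b, less that in cohort 5, was -0.60 (adjusted p = 3.30e-06) for ADH5 MmugDNA.15213.1.S1_at and -0.65 (adjusted p = 0.000626) for ADH5 MmuSTS.2765.1.S1_at. It was -0.51 (adjusted p = 0.0185) for the first ALDH2 probeset and -0.41 (adjusted p = 0.0109) for ALDH7A1 MmugDNA.20752.1.S1_at. For ALDH6A1 it was -0.49 (adjusted p = 0.0236) at MmugDNA.4104.1.S1_at and -0.33 (adjusted p = 0.0387) at MmugDNA.41512.1.S1_at. Without control 37 of cohort 7b the tests for both ADH5 probesets passed and those for the other 4 did not, at -0.43 (adjusted p = 0.0831) for ALDH2, -0.33 (adjusted p = 0.0662) for ALDH7A1 and -0.24 (adjusted p = 0.296) and -0.23 (adjusted p = 0.215) for ALDH6A1. The extraction kit also differed between these cohorts and cannot be told apart from them.

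Single arrays stood far from their group in 2 of 90 sets of values of a member probeset in a group of 4 to 10 arrays, where chance alone would mark about 1 in 20. CAT MmugDNA.32721.1.S1_at was at 5.11 in drinker 43 of cohort 7b, whose nearest neighbour was at 4.78. ALDH7A1 MmugDNA.20752.1.S1_at was at 8.25 in control 15 of cohort 5, whose nearest neighbour was at 8.15.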

How the results depend on the processing

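No result of the members changed sign while called. The count of probesets called over all cohorts, 8044, was 3901 with no block, 1876 without cohort 7a, 2865 without cohort 7b, 3775 with the actin value, 14424 (7425 higher, 6999 lower) with unannotated probesets added and 5041 at a threshold of 0.01. Without cohort 5 it was 10739, with 7 members called. For cohort 7a, 7468 became 4712, 13645 and 4615 with the actin value, the added probesets and the 0.01 threshold. Cohort 7b gave 17605 with the added probesets in place of 9694. The difference between cohorts, 7633, gave 13650 with them and 5041 at 0.01. Drinkers of cohort 7b against 7a, 2865, gave 1316 with batch in the model, 5540 with the added probesets and 1285 at 0.01. Members called over all cohorts were 1 without cohort 7a, 2 without cohort 7b, 1 with the actin value (the second ADH5 probeset) and 2 at 0.01, in cohort 7a 4 with the actin value and 5 at 0.01, and for the difference 3 and 2. Leaving out 1 array gave 6046 to 8526 probesets and 3 to 7 members over all cohorts, 5608 to 7693 and 5 to 8 in cohort 7a, 6726 to 9832 and 2 to 5 in cohort 7b, 6457 to 7798 and 2 to 7 for the difference, 2217 to 3134 and 2 to 4 between drinkers of cohorts 7b and 7a, and 0 in cohort 5 and between drinkers of cohorts 5 and 4. The cause of these shifts was not tested. No paired analysis was possible because each array number belongs to 1 animal and groups share none.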
